A study of Mus musculus with 16 samples.

Results

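The B-lineage transcription factors are nuclear proteins that switch blood progenitors onto the B cell path and keep them there. The 10 factors described here were listed by name: Pax5, Ebf1, Tcf3, Ikzf1, Ikzf3, Foxo1, Irf4, Irf8, Spi1 and Spib. All 10 were found among the 50686 genes of the count files by their mouse symbol. As background, the factors encoded by Tcf3, Ebf1 and Foxo1 act early and open the B cell programme, and PAX5 then holds it by activating B cell genes and silencing genes of other blood lineages. Ikaros family proteins, interferon regulatory factors and the ETS factors PU.1 and SPIB set the pace of the steps from pro-B to pre-B cell. Loss or mutation of PAX5 or Ikaros is common in human B cell leukaemia that carries BCR-ABL1.

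The samples were mouse pro-B cell lines made by infecting C57BL/6N bone marrow with a retrovirus that encodes BCR-ABL1p185. There were 4 individually derived Cdk8fl/fl lines, which the labels call wildtype, and 4 individually derived Cdk8Δ/Δ lines in which Vav-Cre, active in blood cells, had deleted Cdk8. Each line was given DMSO or 1 µM Senexin B, an inhibitor of the kinases CDK8 and CDK19, for 48 h, which made 4 groups of 4 libraries. RNA was read as single-end libraries, with totals from 13145876 to 18349425 counts. Levels are given as CPM, read counts scaled to a common library size with TMM factors. Levels of different genes are compared only as CPM per kilobase of exon (RPKM). To pass a comparison, a gene needed an edgeR log2 fold change above 1 or below -1 with an adjusted p below 0.05.

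Cdk8, the deleted gene, was read first as a check of the labels. Its levels were 68.7, 61.8, 63.3 and 65.8 CPM in Cdk8fl/fl lines 1 to 4 in DMSO and 89.4, 56.3, 56.8 and 55.2 CPM with Senexin B. The Cdk8Δ/Δ lines had 35.3, 52.1, 47.1 and 42.8 CPM in DMSO and 43.9, 61.7, 42.9 and 41.2 CPM with Senexin B. In DMSO every Cdk8Δ/Δ line was below every Cdk8fl/fl line, and with Senexin B the groups overlapped. The edgeR log2 fold change by genotype was -0.55 in DMSO (SE 0.14, adjusted p = 0.897) and -0.44 with Senexin B (SE 0.22, adjusted p = 1). The counts cover the whole gene, exons outside the deletion included, so the remaining counts do not measure how complete the deletion was.

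The pro-B identity was checked on marker genes. All 14 listed pro-B and pre-B markers had counts, with a summed level of 3992 to 6505 CPM over the 16 libraries, and Cd79b, a chain of the B cell receptor complex, was the most abundant of them by RPKM. Ms4a1, which encodes CD20 of later B cells, lay between 0 and 2.09 CPM. Kit, a receptor of early progenitors, was at 0 in 7 libraries and reached 132 CPM in another. The summed level was 61.6 to 376 CPM for 8 mature B and plasma cell markers, with Cd22 the most abundant. It was 0.911 to 25.9 CPM for 12 myeloid markers, of which Elane, S100a8 and S100a9 had no count and Lyz2 was the most abundant. The highest myeloid sum was in Cdk8Δ/Δ line 1 in DMSO. It was 147 to 317 CPM for 6 plasmacytoid dendritic cell markers, led by Cox6a2 in RPKM. Most of that sum in most libraries was Tcf4 (88.1 to 211 CPM), also a relative of Tcf3, and 3 of the 6 had a mean under 1 CPM. The sum was 6.19 to 84.6 CPM for 8 T cell markers, led by Tcf7 with Cd3g and Bcl11b at 0. For 7 erythroid markers the sum was 3.70 to 265 CPM, led by Hbb-bt at 2.76 to 264 CPM, with Hba-a2 at 0. Hbb-bt has near-identical copies, and whether this affected its counts was not tested. For 4 stromal markers the sum was 0 to 2.20 CPM, led by Pdgfrb with Col3a1 at 0.

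The positions of the 10 factors in GRCm38 come from the count files. Pax5 (ENSMUSG00000014030.15) lies on chromosome 4 from 44524757 to 44710487, minus strand. Ebf1 (ENSMUSG00000057098.14) lies on chromosome 11 from 44617317 to 45008091, plus strand. Tcf3 (ENSMUSG00000020167.14) lies on chromosome 10 from 80409514 to 80433647, minus strand, and Ikzf1 (ENSMUSG00000018654.17) lies on chromosome 11 from 11685003 to 11772926, plus strand. Ikzf3 (ENSMUSG00000018168.8) lies on chromosome 11 from 98464902 to 98546031, minus strand, and Foxo1 (ENSMUSG00000044167.6) lies on chromosome 3 from 52268336 to 52353221, plus strand. Irf4 (ENSMUSG00000021356.9) lies on chromosome 13 from 30749226 to 30766927, plus strand, and Irf8 (ENSMUSG00000041515.9) lies on chromosome 8 from 120736358 to 120756694, plus strand. Spi1 (ENSMUSG00000002111.8) lies on chromosome 2 from 91082390 to 91115756, plus strand, and Spib (ENSMUSG00000008193.13) lies on chromosome 7 from 44525993 to 44532071, minus strand. All 10 had counts in all 16 libraries and passed the filter on low counts in every comparison. Their lowest count in a library was 380, for Spib. Reads were counted without strand. Of the exon bases of Pax5, 8.60% overlap Gm12462 and 5730488B01Rik on the other strand, whose highest count sum was 829. The share of Pax5 reads left unassigned by this overlap was not measured. Foxo1 shares 7.78% of its exon bases with Gm20402, which had no counts, and the other 8 share none.

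By mean RPKM over the 16 libraries, Pax5 stood highest at 134 and ranked 276 among the 29942 genes with a count. Ikzf1 followed at 120.4, Tcf3 at 108, Ebf1 at 108 and Irf4 at 92.8 RPKM. Foxo1 was at 61.6, Irf8 at 51.4, Spib at 35.6 and Ikzf3 at 31.1 RPKM, and Spi1 was lowest at 25.0 RPKM, rank 2314. In Cdk8fl/fl lines in DMSO the order of mean RPKM was Pax5, Ikzf1, Tcf3, Ebf1, Irf4, Irf8, Foxo1, Spib, Spi1 and Ikzf3. Spib stood above Spi1 and Ikzf3 in both Cdk8fl/fl groups and below Ikzf3 in both Cdk8Δ/Δ groups. Its mean was 51.3 RPKM in Cdk8fl/fl lines in DMSO and 45.3 RPKM with Senexin B, against 23.1 and 22.6 RPKM in Cdk8Δ/Δ lines. Neighbours in the order overlapped in their range over the 4 libraries in each group, except Irf8 and Ikzf3 in Cdk8Δ/Δ lines in DMSO.

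**Figure D1:**
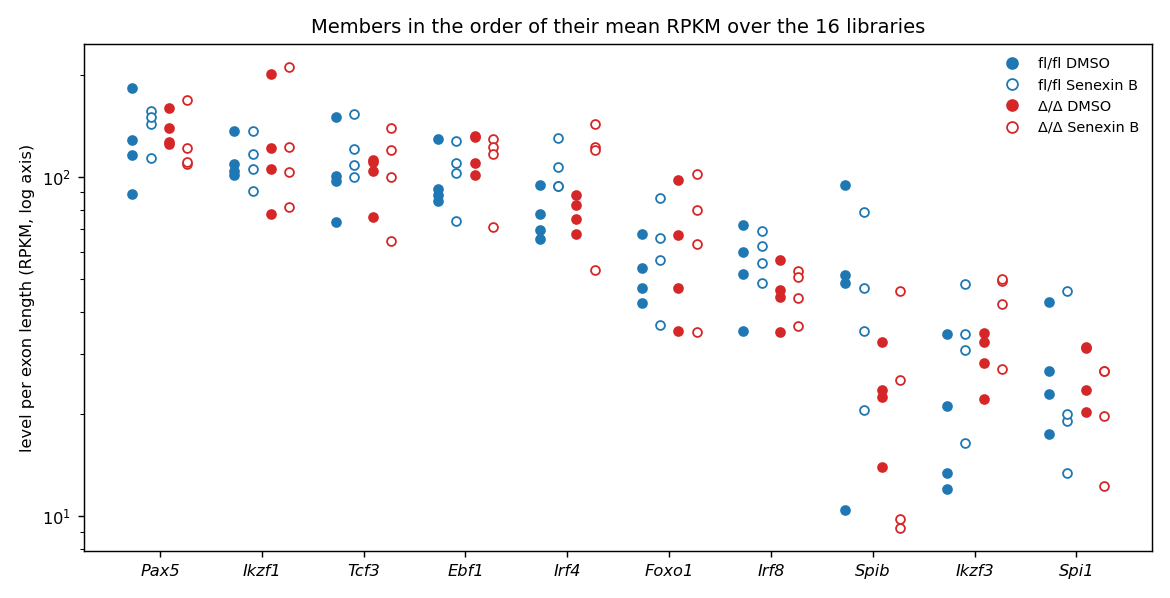
RPKM of the 10 factors in each of the 16 libraries on a log axis, ordered by mean RPKM, with Cdk8fl/fl lines in blue and Cdk8Δ/Δ lines in red. Pax5 is highest at a mean of 134 RPKM and Spi1 lowest at 25.0 RPKM.

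Pax5 encodes the factor that commits cells to the B lineage. Pax5 read 1138, 1616, 1026 and 786 CPM in Cdk8fl/fl lines 1 to 4 in DMSO and 1382, 1009, 1270 and 1331 CPM in the same lines with Senexin B. In Cdk8Δ/Δ lines 1 to 4 Pax5 was at 1230, 1415, 1125 and 1107 CPM in DMSO and 1076, 1493, 964 and 978 CPM with Senexin B. Levels in all 4 groups overlapped; the highest and the lowest of the 16 values were both in Cdk8fl/fl lines in DMSO, in lines 2 and 4. Pax5 group means were 1141 ± 349 and 1248 ± 166 CPM in Cdk8fl/fl lines without and with Senexin B, and 1219 ± 141 and 1128 ± 249 CPM in Cdk8Δ/Δ lines (SD, n = 4). For Pax5, edgeR gave a log2 fold change of Cdk8Δ/Δ over Cdk8fl/fl of 0.098 in DMSO (SE 0.22, adjusted p = 0.966) and -0.15 with Senexin B (SE 0.21, adjusted p = 1). Senexin B over DMSO gave Pax5 an edgeR log2 fold change of 0.14 in Cdk8fl/fl lines (SE 0.24, adjusted p = 1) and -0.11 in Cdk8Δ/Δ lines (SE 0.18, adjusted p = 1). In these bulk libraries fewer cells with a transcript and less of it per cell cannot be told apart. The Pax5 differences between Senexin B and DMSO in log2 CPM were 0.28, -0.68, 0.31 and 0.76 in Cdk8fl/fl lines 1 to 4 and -0.19, 0.078, -0.22 and -0.18 in Cdk8Δ/Δ lines 1 to 4. Line 2 was the exception in each genotype: lower with Senexin B where the other 3 Cdk8fl/fl lines were higher, and higher where the other 3 Cdk8Δ/Δ lines were lower. The test of the difference between the genotypes' responses, the edgeR interaction, gave Pax5 -0.24 (SE 0.30, adjusted p = 1). Leaving out 1 library in turn, the Pax5 value ran from -0.46 to -0.100 for the interaction, from -0.31 to -0.074 for genotype with Senexin B and from -0.28 to -0.030 for Senexin B in Cdk8Δ/Δ lines.

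Ebf1 encodes early B cell factor 1, which opens chromatin at B cell genes and activates Pax5. Ebf1 read 1265, 901, 828 and 862 CPM in Cdk8fl/fl lines 1 to 4 in DMSO and 725, 999, 1071 and 1247 CPM in the same lines with Senexin B. In Cdk8Δ/Δ lines 1 to 4 Ebf1 was at 1286, 1074, 1276 and 986 CPM in DMSO and 695, 1260, 1199 and 1138 CPM with Senexin B. In DMSO, Cdk8fl/fl line 1 stood above the other 3 lines of its group, and those 3 were below all 4 Cdk8Δ/Δ lines. With Senexin B, line 1 of each genotype was the lowest of its group. For Ebf1, edgeR gave a log2 fold change of Cdk8Δ/Δ over Cdk8fl/fl of 0.26 in DMSO (SE 0.17, adjusted p = 0.908) and 0.086 with Senexin B (SE 0.25, adjusted p = 1). Leaving out 1 library, the DMSO value was 0.19 without Cdk8fl/fl line 3 and 0.42 without Cdk8fl/fl line 1. Within lines, Senexin B minus DMSO differences of Ebf1 in log2 CPM were -0.80, 0.15, 0.37 and 0.53 in Cdk8fl/fl lines 1 to 4 and -0.89, 0.23, -0.090 and 0.21 in Cdk8Δ/Δ lines 1 to 4. Line 1 of both genotypes was thus lower with Senexin B by more than any other line moved. Pooled over the 8 lines without the line as a block, the edgeR log2 fold change of Ebf1 with Senexin B was -0.019 (SE 0.15, adjusted p = 1).

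Tcf3 encodes the E2A proteins, which bind E-box sequences and act upstream of Ebf1. Tcf3 read 606, 405, 394 and 298 CPM in Cdk8fl/fl lines 1 to 4 in DMSO and 489, 437, 404 and 617 CPM in the same lines with Senexin B. In Cdk8Δ/Δ lines 1 to 4 Tcf3 was at 308, 447, 420.1 and 454 CPM in DMSO and 261, 405, 485 and 565 CPM with Senexin B. Cdk8fl/fl line 1 was highest in DMSO and line 4 lowest, and with Senexin B line 4 was the highest of its group. Cdk8Δ/Δ line 1 was the lowest of its group in both conditions, and all groups overlapped. By genotype, the edgeR log2 fold change of Tcf3 was -0.059 in DMSO (SE 0.23, adjusted p = 0.983) and -0.18 with Senexin B (SE 0.25, adjusted p = 1). The within-line log2 differences of Tcf3, Senexin B minus DMSO, were -0.31, 0.11, 0.038 and 1.05 in the Cdk8fl/fl lines and -0.24, -0.14, 0.21 and 0.32 in the Cdk8Δ/Δ lines, in line order. The difference of Cdk8fl/fl line 4 was the widest for Tcf3. Over the 8 lines without the block, Senexin B gave Tcf3 a log2 fold change of 0.13 in edgeR (SE 0.17, adjusted p = 1). This value ran from 0.065 to 0.23 when 1 library was left out.

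**Figure D2:**
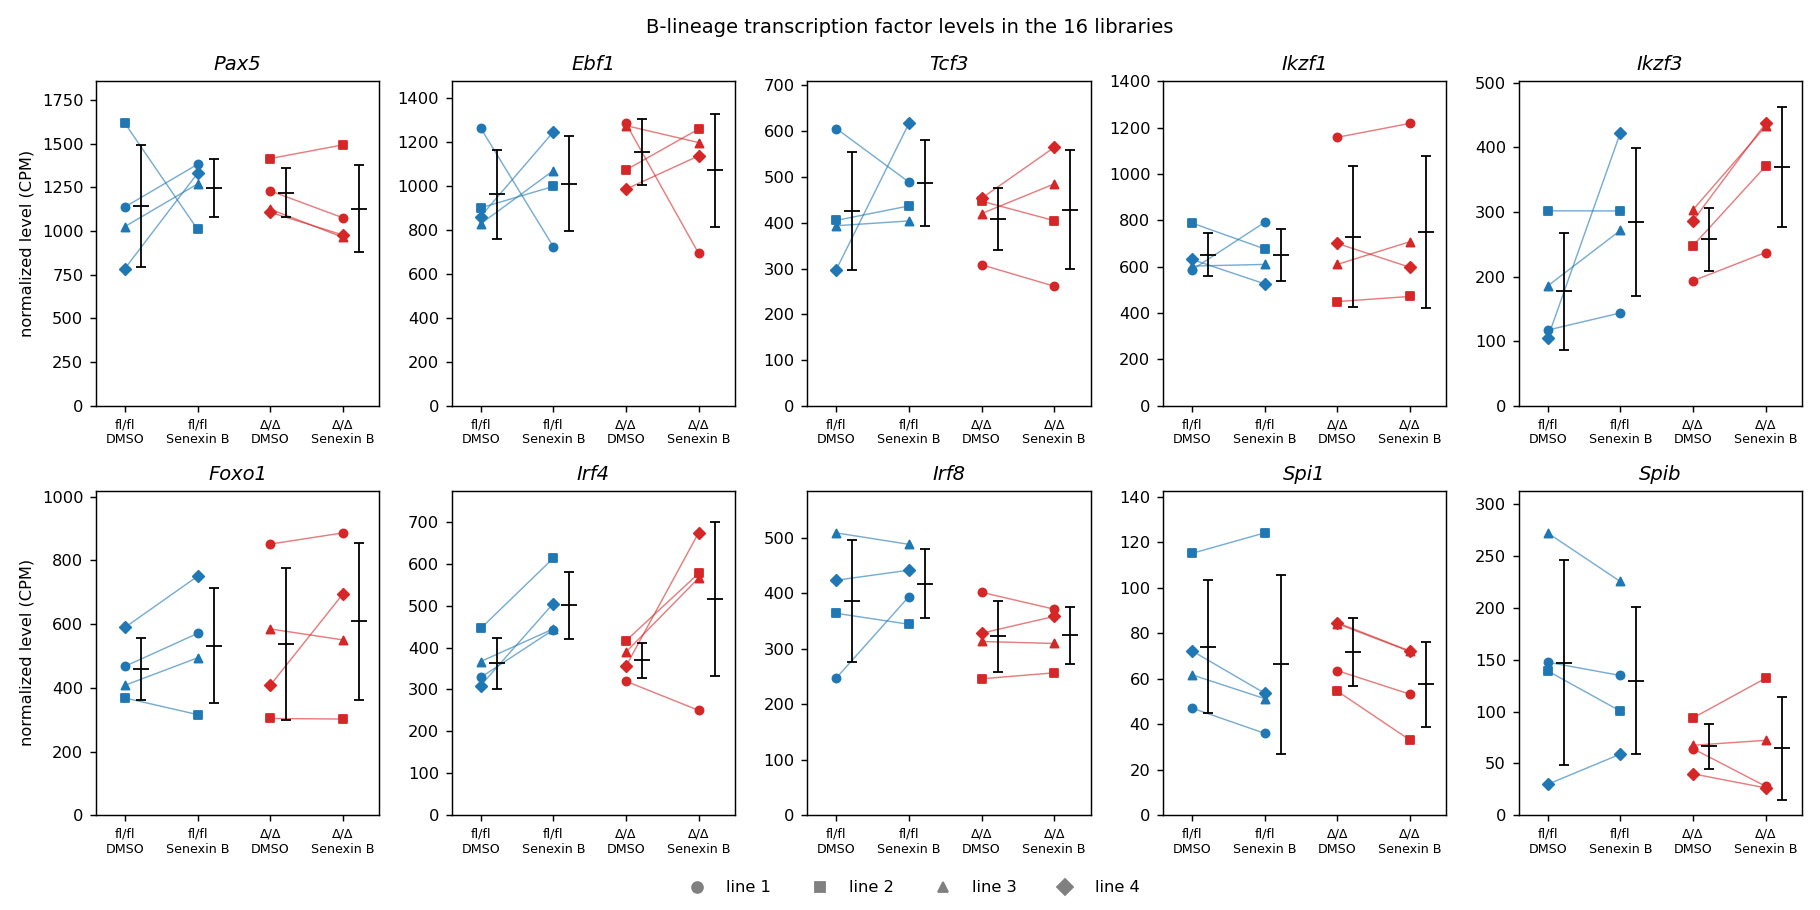
CPM of each factor in the 16 libraries, 1 panel a gene, with Cdk8fl/fl lines in blue and Cdk8Δ/Δ lines in red. Marker shape gives the line, thin lines join both treatments of a line, and black bars are the group mean and SD (n = 4). In the Spib panel Cdk8fl/fl line 3 is highest, at 272 CPM in DMSO.

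Ikzf1 encodes Ikaros, a zinc finger protein needed for lymphoid development. Ikzf1 read 586, 788, 603 and 631 CPM in Cdk8fl/fl lines 1 to 4 in DMSO and 791, 677, 609.9 and 526 CPM in the same lines with Senexin B. In Cdk8Δ/Δ lines 1 to 4 Ikzf1 was at 1158, 449.7, 609.8 and 700.5 CPM in DMSO and 1218, 472, 708 and 598 CPM with Senexin B. The Cdk8Δ/Δ lines held both ends of the range: line 1 was highest and line 2 lowest in DMSO and with Senexin B alike. The Cdk8fl/fl lines lay between them. Ikzf1 group means were 652 ± 92.6 and 651 ± 112 CPM in Cdk8fl/fl lines without and with Senexin B, and 729.6 ± 304 and 749 ± 327 CPM in Cdk8Δ/Δ lines (SD, n = 4). For Ikzf1, edgeR gave a log2 fold change of Cdk8Δ/Δ over Cdk8fl/fl of 0.16 in DMSO (SE 0.27, adjusted p = 0.952) and 0.20 with Senexin B (SE 0.30, adjusted p = 1). Within lines, Senexin B minus DMSO differences of Ikzf1 in log2 CPM were 0.43, -0.22, 0.017 and -0.26 in Cdk8fl/fl lines 1 to 4 and 0.072, 0.069, 0.21 and -0.23 in Cdk8Δ/Δ lines 1 to 4. Each genotype had lines on both sides of 0. The Ikzf1 response to Senexin B in edgeR was a log2 fold change of 0.0094 in Cdk8fl/fl lines (SE 0.18, adjusted p = 1) and 0.038 in Cdk8Δ/Δ lines (SE 0.37, adjusted p = 1).

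Ikzf3 encodes Aiolos, the Ikaros relative that becomes abundant as pro-B cells turn into pre-B cells. Ikzf3 read 117, 302, 185 and 105 CPM in Cdk8fl/fl lines 1 to 4 in DMSO and 144, 301, 271 and 422 CPM in the same lines with Senexin B. In Cdk8Δ/Δ lines 1 to 4 Ikzf3 was at 193, 248, 303 and 286 CPM in DMSO and 237, 370.5, 432 and 437 CPM with Senexin B. Cdk8fl/fl lines 1 and 4 were the lowest in DMSO, and line 4 was the highest of its group with Senexin B. The groups overlapped in every comparison. Ikzf3 group means were 177 ± 90.2 and 284 ± 114 CPM in Cdk8fl/fl lines without and with Senexin B, and 258 ± 48.7 and 369 ± 93.1 CPM in Cdk8Δ/Δ lines (SD, n = 4). Within lines, Senexin B minus DMSO differences of Ikzf3 in log2 CPM were 0.29, -0.0013, 0.55 and 2.00 in Cdk8fl/fl lines 1 to 4 and 0.29, 0.58, 0.51 and 0.61 in Cdk8Δ/Δ lines 1 to 4. Ikzf3 was higher with Senexin B in 7 of 8 lines, in every Cdk8Δ/Δ line and by most in Cdk8fl/fl line 4. The exception, Cdk8fl/fl line 2, lay next to 0. By genotype, the edgeR log2 fold change of Ikzf3 was 0.54 in DMSO (SE 0.34, adjusted p = 0.908) and 0.38 with Senexin B (SE 0.33, adjusted p = 1). Single libraries moved these values: the DMSO one was 0.35 without Cdk8fl/fl line 4 and 0.91 without Cdk8fl/fl line 2, and that with Senexin B 0.16 without Cdk8fl/fl line 1 and 0.63 without Cdk8fl/fl line 4. Senexin B over DMSO gave Ikzf3 0.70 in Cdk8fl/fl lines (SE 0.40, adjusted p = 1), 0.52 in Cdk8Δ/Δ lines (SE 0.23, adjusted p = 1) and 0.60 over the 8 lines (SE 0.24, adjusted p = 0.889) in edgeR. The value in Cdk8fl/fl lines was 0.43 without the Senexin B library of line 4 and 1.07 without the DMSO library of line 2. The interaction was -0.16 (SE 0.50, adjusted p = 1). In DESeq2 with the line as a block and no limit on the fold change, a setting chosen after seeing the data, Ikzf3 had an adjusted p of 0.00162 in Cdk8Δ/Δ lines and 0.0218 over the 8 lines. In edgeR with the same block the adjusted p was 0.164 and 0.111.

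Foxo1 encodes a forkhead factor that activates the recombinase genes and the interleukin 7 receptor gene and is kept out of the nucleus by AKT signalling. Foxo1 read 468, 368, 408 and 589.5 CPM in Cdk8fl/fl lines 1 to 4 in DMSO and 571, 316, 494 and 750 CPM in the same lines with Senexin B. In Cdk8Δ/Δ lines 1 to 4 Foxo1 was at 851, 304, 585 and 408 CPM in DMSO and 886, 302, 550.3 and 694 CPM with Senexin B. As for Ikzf1, Cdk8Δ/Δ line 2 was lowest in both conditions and Cdk8Δ/Δ line 1 highest, so the Cdk8Δ/Δ lines spanned the range of the Cdk8fl/fl lines. Foxo1 group means were 458 ± 96.5 and 533 ± 179.9 CPM in Cdk8fl/fl lines without and with Senexin B, and 537 ± 239 and 608 ± 246 CPM in Cdk8Δ/Δ lines (SD, n = 4). For Foxo1, edgeR gave a log2 fold change of Cdk8Δ/Δ over Cdk8fl/fl of 0.23 in DMSO (SE 0.31, adjusted p = 0.945) and 0.19 with Senexin B (SE 0.36, adjusted p = 1). The within-line log2 differences of Foxo1, Senexin B minus DMSO, were 0.29, -0.22, 0.28 and 0.35 in the Cdk8fl/fl lines and 0.058, -0.0089, -0.087 and 0.77 in the Cdk8Δ/Δ lines, in line order. Cdk8Δ/Δ line 4 had the widest difference and the 3 other Cdk8Δ/Δ lines lay near 0. Senexin B over DMSO gave Foxo1 an edgeR log2 fold change of 0.23 in Cdk8fl/fl lines (SE 0.27, adjusted p = 1) and 0.18 in Cdk8Δ/Δ lines (SE 0.40, adjusted p = 1). The first was 0.0080 without the Senexin B library of line 4 and 0.41 without that of line 2.

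Irf4 encodes an interferon regulatory factor that joins PU.1 or SPIB on DNA and drives the pre-B step and, later, plasma cell formation. Irf4 read 329, 445, 367 and 309 CPM in Cdk8fl/fl lines 1 to 4 in DMSO and 442, 613, 444 and 505 CPM in the same lines with Senexin B. In Cdk8Δ/Δ lines 1 to 4 Irf4 was at 319.7, 416, 389 and 355 CPM in DMSO and 250.4, 577, 565 and 673 CPM with Senexin B. In Cdk8fl/fl lines the Senexin B libraries lay above the DMSO libraries but for a narrow overlap, that of line 2 in DMSO with lines 1 and 3 with Senexin B. Cdk8Δ/Δ line 1 with Senexin B was the lowest of all 16. Irf4 group means were 362 ± 60.2 and 501 ± 80.0 CPM in Cdk8fl/fl lines without and with Senexin B, and 370 ± 41.8 and 516 ± 184 CPM in Cdk8Δ/Δ lines (SD, n = 4). Within lines, Senexin B minus DMSO differences of Irf4 in log2 CPM were 0.43, 0.46, 0.28 and 0.71 in Cdk8fl/fl lines 1 to 4 and -0.35, 0.47, 0.54 and 0.92 in Cdk8Δ/Δ lines 1 to 4. Irf4 was higher with Senexin B in 7 of 8 lines, Cdk8Δ/Δ line 1 being the exception. The edgeR log2 fold change of Irf4 with Senexin B was 0.48 in Cdk8fl/fl lines (SE 0.18, adjusted p = 1) and 0.48 in Cdk8Δ/Δ lines (SE 0.28, adjusted p = 1). Over the 8 lines it was 0.47 (SE 0.16, adjusted p = 0.822), and the interaction was 0.014 (SE 0.34, adjusted p = 1). With the line as a block the adjusted p over the 8 lines was 0.0893 in edgeR. In DESeq2 with the block and no fold change limit, chosen after seeing the data, it was 0.0181 over the 8 lines. By genotype, the edgeR log2 fold change of Irf4 was 0.033 in DMSO (SE 0.15, adjusted p = 0.986) and 0.042 with Senexin B (SE 0.29, adjusted p = 1).

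Irf8, its close relative, acts with Irf4 at the pre-B step and is also a factor of dendritic and myeloid cells. Irf8 read 247, 364, 509 and 424 CPM in Cdk8fl/fl lines 1 to 4 in DMSO and 394, 344, 488 and 442 CPM in the same lines with Senexin B. In Cdk8Δ/Δ lines 1 to 4 Irf8 was at 402, 246, 313 and 328 CPM in DMSO and 371, 257, 309.6 and 358 CPM with Senexin B. In DMSO, Cdk8fl/fl line 1 was among the lowest values and the other 3 lines of its group among the highest. With Senexin B the Cdk8fl/fl lines lay mostly above the Cdk8Δ/Δ lines, with an overlap at line 2 of the first and lines 1 and 4 of the second. For Irf8, edgeR gave a log2 fold change of Cdk8Δ/Δ over Cdk8fl/fl of -0.26 in DMSO (SE 0.23, adjusted p = 0.915) and -0.36 with Senexin B (SE 0.18, adjusted p = 1). Without Cdk8fl/fl line 1 the DMSO value was -0.42, and without Cdk8fl/fl line 3 it was -0.10. Within lines, Senexin B minus DMSO differences of Irf8 in log2 CPM were 0.67, -0.081, -0.060 and 0.060 in Cdk8fl/fl lines 1 to 4 and -0.11, 0.062, -0.017 and 0.13 in Cdk8Δ/Δ lines 1 to 4. Apart from Cdk8fl/fl line 1, every line lay within 0.13 of 0 in log2 CPM. Pooled over lines without the line as a block, the edgeR log2 fold change of Irf8 with Senexin B was 0.060 (SE 0.15, adjusted p = 1).

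Spi1 encodes PU.1, an ETS factor whose amount helps to set the choice between myeloid and B cells. Spi1 read 47.2, 115, 61.8 and 72.3 CPM in Cdk8fl/fl lines 1 to 4 in DMSO and 36.1, 124, 51.3 and 53.7 CPM in the same lines with Senexin B. In Cdk8Δ/Δ lines 1 to 4 Spi1 was at 63.6, 54.6, 84.3 and 84.8 CPM in DMSO and 53.3, 33.1, 72.0 and 72.2 CPM with Senexin B. Cdk8fl/fl line 2 was the highest in both conditions, and all groups overlapped. Cdk8Δ/Δ line 2 with Senexin B was the lowest of the 16. Spi1 group means were 74.1 ± 29.3 and 66.3 ± 39.3 CPM in Cdk8fl/fl lines without and with Senexin B, and 71.8 ± 15.1 and 57.7 ± 18.6 CPM in Cdk8Δ/Δ lines (SD, n = 4). For Spi1, edgeR gave a log2 fold change of Cdk8Δ/Δ over Cdk8fl/fl of -0.043 in DMSO (SE 0.28, adjusted p = 0.989) and -0.20 with Senexin B (SE 0.41, adjusted p = 1). The within-line log2 differences of Spi1, Senexin B minus DMSO, were -0.38, 0.11, -0.26 and -0.43 in the Cdk8fl/fl lines and -0.25, -0.71, -0.22 and -0.23 in the Cdk8Δ/Δ lines, in line order. Spi1 was lower with Senexin B in 7 of 8 lines, the exception being Cdk8fl/fl line 2. Senexin B over DMSO gave Spi1 -0.32 in Cdk8Δ/Δ lines (SE 0.27, adjusted p = 1) and -0.24 over the 8 lines (SE 0.26, adjusted p = 1) in edgeR. The value in Cdk8Δ/Δ lines was -0.13 without the Senexin B library of line 2 and -0.44 without that of line 4, and the value over the 8 lines was -0.47 without the Senexin B library of Cdk8fl/fl line 2 and -0.11 without its DMSO library. With the line as a block, edgeR gave Spi1 -0.30 over the 8 lines (SE 0.088, adjusted p = 0.106). DESeq2 with the block and no fold change limit, chosen after seeing the data, gave -0.30 with an adjusted p of 0.0495. Of the 12 myeloid markers 2 were tested: over the 8 lines with the block, edgeR gave Fcgr1 a log2 fold change of -1.54 (SE 0.62, adjusted p = 0.239) at 0 to 1.54 CPM and Lyz2 one of -0.83 (SE 0.26, adjusted p = 0.121). The 12 markers together had a median of 2.49 CPM, and their part in the Spi1 difference was not tested.

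Spib encodes the ETS factor closest to PU.1, made in B cells and plasmacytoid dendritic cells. Spib read 148, 139, 272 and 29.9 CPM in Cdk8fl/fl lines 1 to 4 in DMSO and 135, 100.5, 225 and 59.0 CPM in the same lines with Senexin B. In Cdk8Δ/Δ lines 1 to 4 Spib was at 64.3, 93.8, 67.5 and 40.0 CPM in DMSO and 28.1, 132, 72.3 and 26.5 CPM with Senexin B. In DMSO, Cdk8fl/fl lines 1 to 3 stood above all 4 Cdk8Δ/Δ lines, while Cdk8fl/fl line 4 was the lowest of the 8. With Senexin B, Cdk8Δ/Δ lines 2 and 3 lay within the range of the Cdk8fl/fl lines and lines 1 and 4 below it. Spib group means were 147 ± 99.1 and 129.9 ± 70.8 CPM in Cdk8fl/fl lines without and with Senexin B, and 66.4 ± 22.0 and 64.7 ± 49.7 CPM in Cdk8Δ/Δ lines (SD, n = 4). The edgeR log2 fold change of Cdk8Δ/Δ over Cdk8fl/fl was -1.15 in DMSO (SE 0.56, adjusted p = 0.897), the lowest of the 10 factors, and -1.01 with Senexin B (SE 0.59, adjusted p = 1). Single lines moved this value: in DMSO it was -1.50 without Cdk8fl/fl line 4 and -0.67 without Cdk8fl/fl line 3, and with Senexin B it was -1.62 without Cdk8Δ/Δ line 2 and -0.59 without Cdk8fl/fl line 3. DESeq2 gave the DMSO difference an adjusted p of 0.609. Within lines, Senexin B minus DMSO differences of Spib in log2 CPM were -0.13, -0.47, -0.27 and 0.97 in Cdk8fl/fl lines 1 to 4 and -1.18, 0.49, 0.098 and -0.59 in Cdk8Δ/Δ lines 1 to 4. The lines of each genotype differed in sign. Plasmacytoid dendritic cell markers summed to 178 to 290 CPM in Cdk8fl/fl lines in DMSO and 191 to 224 CPM in Cdk8Δ/Δ lines in DMSO, with Tcf4 the most abundant by CPM in each of these libraries. By genotype in DMSO the edgeR log2 fold change was 0.093 for Tcf4 (SE 0.14, adjusted p = 0.947), -0.89 for Cox6a2 (SE 1.08, adjusted p = 0.937), and 0.36 for Runx2 (SE 1.11, adjusted p = 0.98), the 3 markers tested. With Senexin B 2 of the 3 were again positive, with Cox6a2 at -1.25 (SE 1.35, adjusted p = 1), Runx2 at 0.84 (SE 1.05, adjusted p = 1) and a median of 0.19. The part of these markers in the Spib difference was not tested. Senexin B over DMSO gave Spib -0.17 in Cdk8fl/fl lines (SE 0.61) and -0.035 in Cdk8Δ/Δ lines (SE 0.54), and the interaction was 0.14 (SE 0.87, adjusted p = 1).

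**Figure D3:**
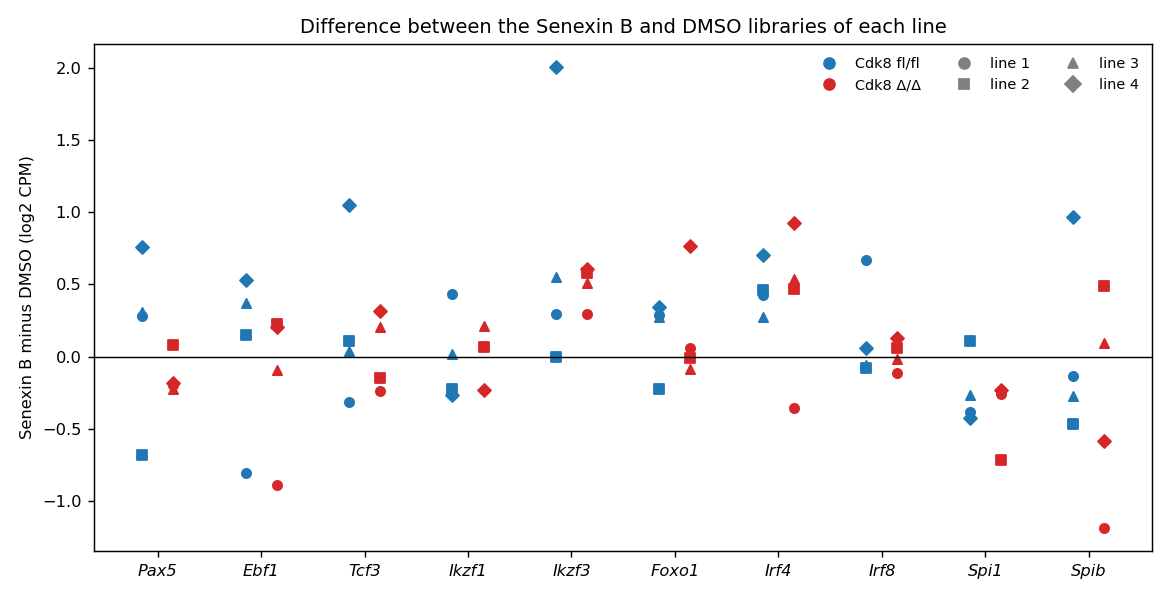
Senexin B minus DMSO in log2 CPM for each of the 8 lines and each factor, with Cdk8fl/fl lines in blue and Cdk8Δ/Δ lines in red. Irf4 and Ikzf3 are above 0 and Spi1 is below 0 in 7 of 8 lines.

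The lines differed among themselves within each genotype. Averaged over DMSO and Senexin B, Spib spanned a 7.51-fold range over the 8 lines, from Cdk8Δ/Δ line 4 to Cdk8fl/fl line 3, and 7.76% of 9877 genes with a mean of at least 5 CPM spanned a wider one. Spi1 spanned 2.88-fold, Foxo1 2.86-fold, Ikzf3 2.78-fold and Ikzf1 2.58-fold. Ebf1 and Pax5 were the most even, at 1.31-fold and 1.42-fold, with 91.0% and 80.5% of genes spanning more. The median of all these genes was 1.76-fold. Between DMSO and Senexin B of a line, the median absolute log2 difference was 0.53 for Ikzf3, 0.48 for Spib and 0.47 for Irf4, beside 0.23 for the median of all these genes. Over the 8 lines, Ikzf1 and Foxo1 had a Pearson r of 0.674, and Foxo1 and Irf4 one of -0.782. These were the highest and lowest of the 45 pairs of factors, over n = 8 lines that share their culture and library preparation. The genes whose line means tracked Spib most closely were Mapk8 (r = 0.950), Snhg20 (r = 0.946) and Fv1 (r = 0.943), out of 9876 compared over the 8 lines. For Spi1 they were Ndufa3 (r = 0.989), Btd (r = 0.967) and Cox4i1 (r = 0.963), and for Foxo1 they were Cep68 (r = 0.964), Pigq (r = 0.954) and Arhgef12 (r = 0.937).

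The genotype comparison asks what loss of the CDK8 protein changes, and in DMSO 0 of the 10 factors passed in edgeR, beside 0.00759% of the 13174 genes tested, or 1 gene. DESeq2 passed 0 factors and 21 genes. At an unadjusted p under 0.05 there were 0 factors and 5.32% of genes, and 0 factors had groups that did not overlap, beside 3.14% of genes. The direction was mixed: Spib was lower and Ikzf3 higher in Cdk8Δ/Δ lines by the widest log2 margins, 6 factors had a positive and 4 a negative fold change, and their median log2 fold change was 0.066, beside 0.0017 over all genes. With Senexin B in both groups, 0 factors and 0% of 13010 genes passed in edgeR, and DESeq2 passed 0 factors and 3 genes. At an unadjusted p under 0.05 there were 0 factors and 1.55% of genes, and 0 factors without overlap, beside 0.999% of genes. Here 5 factors were positive and 5 negative, with a median of -0.052 beside -0.0036 over all genes.

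The Senexin B comparison asks what blocking the kinase changes in cells with and without the CDK8 protein. In Cdk8fl/fl lines 0 factors and 0% of 12989 genes passed in edgeR, and DESeq2 passed 0 factors and 18 genes. With the line as a block, edgeR passed 0 factors and 0.346% of genes, or 45. At an unadjusted p under 0.05 there was 1 factor, Irf4, beside 3.80% of genes, and with the block again 1, Irf4, beside 10.3%. The DMSO and Senexin B groups did not overlap for 0 factors and 2.16% of genes. Irf4 was the 1 factor higher in every Cdk8fl/fl line, as were 8.38% of genes, and 0 factors were lower in every line, beside 9.46% of genes.

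In Cdk8Δ/Δ lines 0 factors and 0% of 13285 genes passed in edgeR, and DESeq2 passed 0 factors and 0 genes. With the block, edgeR passed 0 factors and 0.0527% of genes, or 7. An unadjusted p under 0.05 was reached by 1 factor, Ikzf3, beside 1.83% of genes, and with the block by 2, Ikzf3 and Spi1, beside 10.3%. Groups without overlap held 0 factors and 1.66% of genes. Ikzf3 was the 1 factor higher in every Cdk8Δ/Δ line, beside 8.89% of genes, and Spi1 the 1 factor lower in every line, beside 10.3% of genes. The genotype and Senexin B comparisons share libraries and are not independent of each other.

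Pooled over both genotypes, Irf4 and Ikzf3 stood higher and Spi1 lower with Senexin B, each in 7 of 8 lines. In edgeR 0 factors and 0% of 14164 genes passed, and DESeq2 passed 0 factors and 16 genes. With the line as a block, edgeR passed 0 factors and 0.946% of genes, or 134. An unadjusted p under 0.05 was reached by 2 factors, Irf4 and Ikzf3, beside 4.86% of genes, and with the block by 3, Irf4, Ikzf3 and Spi1, beside 16.4%. The 2 factors higher in at least 7 of 8 lines stood beside 7.66% of genes, and the 1 lower in at least 7 beside 9.03%. With the block, 7 factors were positive and 3 negative, with a median log2 fold change of 0.0495 beside -0.0048 over all genes. In DESeq2 with the block and no fold change limit, chosen after seeing the data, 3 factors and 762 genes had an adjusted p under 0.05. For the interaction, the test of whether the response differed between genotypes, 0 factors and 0% of 14164 genes passed in edgeR, and at an unadjusted p under 0.05 there were 0 factors and 0.473% of genes. DESeq2 passed 0 genes. With the line as a block, edgeR passed 0 genes, and 459 had an unadjusted p under 0.05.

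The factors' relatives and targets were read beside them. The lists share genes, so their tallies are not independent. Rag1, Rag2, Il7r and Blnk are listed both as targets of PAX5, EBF1 and E2A and as FOXO1 targets. Il7r and Blnk are also listed as targets of IRF4, IRF8, PU.1 and SPIB. Bcl6 is on that list and among the other regulators. Lef1 and Bach2 are listed both as other regulators and as targets of PAX5, EBF1 and E2A. The factor Ikzf1 is itself listed as a FOXO1 target. Of 27 family relatives 13 were tested by genotype in DMSO, with 5 positive and 8 negative, and a median log2 fold change of -0.094. Of 18 other B-lineage regulators 10 were positive and 8 negative, with a median of 0.11, and of 18 targets that PAX5, EBF1 and E2A activate 13 were positive and 5 negative, with a median of 0.21. Of 6 genes that PAX5 silences 4 were tested, 1 positive and 3 negative, with a median of -0.16. Of 12 FOXO1 targets 8 were positive and 4 negative, with a median of 0.26, and of 10 targets of IRF4, IRF8, PU.1 and SPIB 7 were tested, 2 positive and 5 negative, with a median of -0.13. Over all genes the median was 0.0017, and in these lists edgeR passed 0 genes. Bcl6, Rag1 and Rag2 had an unadjusted p under 0.05 in edgeR, a limit that 5.32% of all genes reached. Rag1 and Rag2, the recombinase genes that FOXO1 activates, had a log2 fold change of 3.51 (SE 0.70, adjusted p = 0.897) and 3.60 (SE 0.93, adjusted p = 0.897). Rag1 lay between 1.61 and 3.86 CPM in Cdk8fl/fl lines and between 9.27 and 77.9 CPM in Cdk8Δ/Δ lines in DMSO, and Rag2 between 0.140 and 2.52 CPM and between 7.66 and 39.4 CPM. Bcl6, a repressor of the pre-B and germinal centre stages, had -0.92 (SE 0.36, adjusted p = 0.897), and Tcf12, the E-protein relative of Tcf3, -0.31 (SE 0.14, adjusted p = 0.897). With Senexin B in both groups the median had the other sign in 3 lists. Family relatives had 8 positive and 4 negative by genotype (median 0.115), the other regulators 7 and 11 (median -0.078) and the targets of PAX5, EBF1 and E2A 7 and 11 (median -0.13). Genes that PAX5 silences had 1 and 2 (median -0.35), FOXO1 targets 8 and 4 (median 0.18) and targets of IRF4, IRF8, PU.1 and SPIB 1 and 7 (median -0.23), beside a median of -0.0036 over all genes. Here too 0 passed. An unadjusted p under 0.05 was reached in edgeR by Rag1 at 2.84 (SE 1.09, adjusted p = 1), Rag2 at 2.25 (SE 0.98, adjusted p = 1) and Irf5, a relative of Irf4, at 0.64 (SE 0.25, adjusted p = 1), beside 1.55% of all genes. Rag1, Rag2 and Irf5 were higher in Cdk8Δ/Δ lines, as Rag1 and Rag2 were in DMSO.

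With Senexin B over the 8 lines and the block, 14 family relatives were tested, with 5 positive and 9 negative and a median log2 fold change of -0.17, and 0 of them passed in edgeR (3 had a positive and 3 a negative fold change at an unadjusted p under 0.05, a limit that 16.4% of all genes reached). The other regulators had 12 positive and 6 negative with a median of 0.13, and the targets activated by PAX5, EBF1 and E2A 14 and 4 with a median of 0.20, with 0 passing in either list and an unadjusted p under 0.05 for 4 higher and 4 lower regulators and for 3 higher and 2 lower targets. Taken by genotype, 15 of these targets were positive and 3 negative in Cdk8fl/fl lines, with a median of 0.48, and 7 positive and 11 negative in Cdk8Δ/Δ lines, with a median of -0.0445. The medians over all genes were 0.005 and -0.0059. Most of these targets were lower with Senexin B in line 1 of both genotypes and in Cdk8Δ/Δ line 2. Most were higher in Cdk8fl/fl lines 2 to 4 and also in Cdk8Δ/Δ lines 3 and 4. In Cdk8fl/fl line 1 the log2 differences ran from -1.20 for Il7r to 0.575 for Cd22. In the interaction with the block these targets had 2 positive and 16 negative, with a median of -0.55 beside -0.0037 over all genes, and 0 passed. Family relatives had 3 positive and 9 negative in Cdk8fl/fl lines and 6 and 7 in Cdk8Δ/Δ lines, and the other regulators 11 and 7, and 12 and 6. Cd79b, 1 of the targets, was at -0.38 over the 8 lines (SE 0.081, adjusted p = 0.0308), under the fold change limit, and lower with Senexin B in each of the 8. Without the block its adjusted p in edgeR was 0.854. Of 5 tested genes that PAX5 silences, Ccr2, a chemokine receptor of myeloid cells, passed at 1.83 (SE 0.35, adjusted p = 0.0209), and Flt3, a receptor of early progenitors, passed at -1.63 (SE 0.37, adjusted p = 0.0399) as log2 fold changes in edgeR. Of all genes 0.946% passed in this fit. Flt3 was low, at 0 to 5.99 CPM with a median of 0.477 CPM. Of 12 FOXO1 targets, Ccr7, a homing receptor, was among those that passed, at 1.86 (SE 0.22, adjusted p = 0.00273), and the list's median was 0.017. Without the block the adjusted p of these 3 genes in edgeR was 0.786 for Ccr2, 1 for Flt3 and 0.578 for Ccr7. All 8 tested targets of IRF4, IRF8, PU.1 and SPIB were positive, with a median of 0.50 beside -0.0048 over all genes, and 0 passed. Of all 14164 genes 6933 were positive. The lowest of the 8 was 0.022. By genotype with the block, 7 were positive and 0 negative in Cdk8fl/fl lines, and 7 positive and 1 negative in Cdk8Δ/Δ lines. Single lines differed in sign: Il7r ran from -1.20 in Cdk8fl/fl line 1 to 1.64 in line 2, and Blnk from -0.39 in Cdk8fl/fl line 1 to 0.46 in line 4. An unadjusted p under 0.05 was reached by 3 of these 8 targets, beside 16.4% of all genes. Among them Bcl6 had 0.95 (SE 0.15, adjusted p = 0.00919; 0.574 without the block), under the fold change limit, and Ikzf3 is itself 1 of the 8.

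Promoters are shown for Irf4, which stood higher with Senexin B in 7 of 8 lines, for Spib, the factor with the widest range over lines, and for Foxo1, the 1 factor whose window held the EBF1 motif. Of the 10 factors 8 had an entry among the RefSeq promoter windows of GRCm38.p6, with 11 windows, each from 250 bases before to 50 after a transcription start. Spi1 and Ikzf3 had none. The 11 windows were searched on both strands for 6 short motifs of the factors themselves. Over all 32817 windows, CAGCTG, an E-box bound by E2A, was in 16.3%, and TCCC and GGGA separated by any 2 bases, bound by EBF1, in 0.905%. TGGGAA, the Ikaros core, was in 25.6%, GAGGAA, an ETS core of PU.1 and SPIB, in 28.3%, and GTAAACA, bound by FOXO factors, in 3.65%. GAAA, any 2 bases and GAAA, bound by IRF factors, was in 3.43%. The motifs can share bases with each other. The Irf4 window, chr13:30748983-30749282 on the plus strand, held an ETS core 19 bases before the start. The Foxo1 window, chr3:52268087-52268386 on the plus strand, held the EBF1 motif 92 bases before the start, and the Spib window, chr7:44532022-44532321 on the minus strand, held none of the 6. Capitals mark the matches, written on the strand of the gene, and a match is a description of letters and not of binding.
Irf4: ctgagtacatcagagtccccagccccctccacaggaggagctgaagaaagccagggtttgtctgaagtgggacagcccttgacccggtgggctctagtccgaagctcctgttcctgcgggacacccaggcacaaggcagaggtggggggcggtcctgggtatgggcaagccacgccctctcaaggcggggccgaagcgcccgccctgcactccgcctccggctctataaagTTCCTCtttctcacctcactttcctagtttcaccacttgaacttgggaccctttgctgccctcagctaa
Foxo1: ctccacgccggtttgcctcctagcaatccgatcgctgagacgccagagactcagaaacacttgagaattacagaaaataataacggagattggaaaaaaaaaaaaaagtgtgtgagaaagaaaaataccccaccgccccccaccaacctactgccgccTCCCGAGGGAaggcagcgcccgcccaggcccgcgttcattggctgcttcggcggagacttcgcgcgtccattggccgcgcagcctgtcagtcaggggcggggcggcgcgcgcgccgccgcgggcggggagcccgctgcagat
Spib: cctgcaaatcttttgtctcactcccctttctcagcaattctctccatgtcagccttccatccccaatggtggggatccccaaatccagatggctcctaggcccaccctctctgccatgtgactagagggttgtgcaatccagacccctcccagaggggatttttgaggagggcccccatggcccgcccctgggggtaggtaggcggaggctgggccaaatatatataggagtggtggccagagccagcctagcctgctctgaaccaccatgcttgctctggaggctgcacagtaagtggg

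Among the other windows, 1 of the Ebf1 windows held the IRF motif 155 bases before the start, the other held the Ikaros core 207 and an ETS core 130 bases before it, and both Irf8 windows held an Ikaros core. The windows of Pax5, Tcf3 and Ikzf1 held none of the 6.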

How the data were processed

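RNA of 16 libraries, 1 per line and treatment, was counted per gene. The authors used Trimmomatic, STAR and featureCounts 1.5.1 on GENCODE M13 (GRCm38), without strand, and deposited raw counts with no normalization. The header of 1 of the 16 count files, that of Cdk8fl/fl line 1 in DMSO, names another folder than the other 15. Its gene models are the same, and whether it was counted in another run is not stated.

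From these counts, TMM-scaled CPM and RPKM were computed for the 16 libraries, with 0.5 CPM added before log2. Comparisons used edgeR 4.0.16 in R 4.3.3 (filterByExpr, robust quasi-likelihood test, Benjamini-Hochberg adjustment over all genes tested) on the libraries of the groups compared, and all 16 for the pooled and interaction tests. Standard errors (SE) follow from the size of each fold change and its F statistic. Tables and plots used Python 3.11.15, numpy 2.4.6, pandas 2.3.3 and matplotlib 3.10.9. The fitting code was tested on simulated data.

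Replicate numbers were read as lines, since the study treated each line both ways. Over 14164 genes the 8 pairs of libraries of a line deviated together from their group means (r from 0.572 to 0.872, mean 0.772; lowest for Cdk8fl/fl line 1), so the line served as a block in an alternative to each Senexin B comparison. Other alternatives were DESeq2 1.42.0, RLE size factors, no filter, 16 libraries in one fit, no fold change limit, and leaving out each library. DESeq2 with the block, and the block without both libraries of each line, were added after seeing the data. DESeq2 was read for the 10 factors and for the count of all genes, not for the other lists.

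The factors and lists were chosen with earlier results of these data known. Named genes are the 10 factors, Cdk8, and of each list every gene that passed, or else those with the smallest p. After the values were seen, the list genes named were narrowed to genotype in DMSO and to Senexin B over both genotypes, and there to some of those the rule gives; some are also given for genotype with Senexin B. Results for some list genes are not reported here. The 6 promoter motifs were chosen after the sequences were seen, and the ETS core is shorter than a pattern considered earlier. Only this version was run. Genes that track a factor over lines were sought among genes with a mean of at least 5 CPM. Library totals set counting error only, and the lowest factor count was 380.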

Additional observations from a re-analysis of the deposited data

Results flagged for a closer look

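In groups of 4, a value stood apart where its gap to the nearest of the others, over the group's whole range, exceeded Dixon's limit, which chance gives in about 1 in 20 groups. Of 70 sets of values, of the factors, Cdk8 and the library totals, 7 held such a value. Cdk8 was at 89.4 CPM in Cdk8fl/fl line 1 with Senexin B and at 61.7 CPM in Cdk8Δ/Δ line 2 with Senexin B, each far above the rest of its group. Ebf1 was at 1265 CPM in Cdk8fl/fl line 1 in DMSO, above its group. For the difference between Senexin B and DMSO in log2 CPM, Pax5 stood above the other Cdk8Δ/Δ lines in line 2 at 0.078. Foxo1 stood below the other Cdk8fl/fl lines in line 2 at -0.22 and above the other Cdk8Δ/Δ lines in line 4 at 0.77. Spi1 stood below the other Cdk8Δ/Δ lines in line 2 at -0.71.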

How the results depend on the processing

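The count of factors that passed was 0 in each comparison and stayed 0 in 116 of 118 alternatives. The exceptions were DESeq2 with the block and no fold change limit, chosen after seeing the data, at 1 factor in Cdk8Δ/Δ lines and 3 over both genotypes. The block changed no other call among the factors. For each value listed here the cause was not tested.

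The count of all genes that passed was 1 for genotype in DMSO, 21 in DESeq2, 0 with the replicate block and 0 with the block and no fold change limit. The genotypes share only replicate numbers (r from -0.208 to 0.424 over 16 pairs). With Senexin B it was 0, 3 in DESeq2, 1 without the filter and 1 with 16 libraries in one fit. For Senexin B in Cdk8fl/fl lines it was 0, 18 in DESeq2, 3 without the filter, 45 with the block, 46 with the block and no fold change limit, and 177 and 297 in DESeq2 with the block, with and without that limit. In Cdk8Δ/Δ lines it was 0, 7 and 7 with the block, with and without the limit, and 77 and 201 in DESeq2 with the block. Over both genotypes it was 0, 16 in DESeq2, 134 and 373 with the block, with and without the limit, and 190 and 762 in DESeq2 with the block. With the block and without both libraries of a line, chosen after seeing the data, it was 131, 97, 80 and 88 without Cdk8fl/fl lines 1 to 4 and 178, 124, 105 and 114 without Cdk8Δ/Δ lines 1 to 4. Leaving out 1 library gave 0 genes each time for genotype in DMSO, and from 0 to 5 for Senexin B over both genotypes, with 5 without the Senexin B library of Cdk8Δ/Δ line 1.

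Some log2 fold changes of the factors changed sign. With the replicate block, Spi1 became 0.021 for genotype in DMSO, Irf4 -0.033 for genotype with Senexin B, Spib 0.024 for Senexin B in Cdk8fl/fl lines, and Foxo1 0.0071, Irf4 -0.070 and Spib -0.30 for the interaction. Ikzf1 for Senexin B in Cdk8fl/fl lines became -0.0034 in DESeq2, -0.0035 with RLE size factors, -0.017 without the filter, -0.0025 with 16 libraries in one fit and -0.0090 in DESeq2 with the block, where Spib became 0.015. Irf8 in Cdk8Δ/Δ lines became -0.0011 without the filter. Over both genotypes, with the block and without Cdk8fl/fl line 1, Pax5 became -0.019, Ebf1 0.077, Ikzf1 -0.048 and Irf8 -0.0030. Without Cdk8fl/fl line 3, Pax5 became -0.015, and without line 4 Pax5 became -0.086 and Tcf3 -0.0029. Without Cdk8Δ/Δ line 1, Ebf1 became 0.096 and Spib 0.018, and without line 3 Ikzf1 became -0.011.

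Leaving out 1 library in turn gave these factors log2 fold changes of both signs. For genotype in DMSO they ran from -0.081 to 0.42 for Foxo1, -0.15 to 0.33 for Ikzf1, -0.046 to 0.14 for Irf4, -0.053 to 0.30 for Pax5, -0.21 to 0.24 for Spi1 and -0.21 to 0.16 for Tcf3. For genotype with Senexin B they ran from -0.044 to 0.26 for Ebf1, -0.039 to 0.42 for Foxo1, -0.13 to 0.37 for Ikzf1, -0.11 to 0.28 for Irf4, -0.41 to 0.30 for Spi1 and -0.34 to 0.0029 for Tcf3. For Senexin B in Cdk8fl/fl lines they ran from -0.051 to 0.23 for Ebf1, -0.10 to 0.11 for Ikzf1, -0.048 to 0.29 for Irf8, -0.0014 to 0.35 for Pax5, -0.65 to 0.13 for Spi1 and -0.58 to 0.32 for Spib. In Cdk8Δ/Δ lines they ran from -0.19 to 0.048 for Ebf1, -0.066 to 0.50 for Foxo1, -0.31 to 0.35 for Ikzf1, -0.10 to 0.13 for Irf8, -0.65 to 0.22 for Spib and -0.086 to 0.25 for Tcf3. Over both genotypes they ran from -0.080 to 0.060 for Ebf1, -0.14 to 0.16 for Ikzf1, -0.020 to 0.13 for Irf8, -0.067 to 0.096 for Pax5 and -0.39 to 0.12 for Spib. For the interaction they ran from -0.28 to 0.28 for Foxo1, -0.30 to 0.35 for Ikzf1, -0.55 to 0.088 for Ikzf3, -0.14 to 0.24 for Irf4, -0.27 to 0.058 for Irf8, -0.45 to 0.34 for Spi1, -0.47 to 0.55 for Spib and -0.34 to 0.057 for Tcf3. The other factors kept their direction when any 1 library was left out of that comparison. Every factor was detected in every library, at 380 counts or more.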
